A study of Bos taurus with 11 samples.

Results

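The genes described here are 10 bovine genes of inflammation and innate host defence, chosen by Ensembl identifier: the chemokines CXCL8 (ENSBTAG00000019716) and CCL5 (ENSBTAG00000007191), the cytokines IL6 (ENSBTAG00000014921), TNF (ENSBTAG00000025471) and IL1B (ENSBTAG00000001321), the receptors TLR2 (ENSBTAG00000008008) and TLR4 (ENSBTAG00000006240), and the secreted host defence proteins LTF (ENSBTAG00000001292), S100A8 (ENSBTAG00000012640) and S100A9 (ENSBTAG00000006505). Of these 10 genes, 9 had a row among the 27607 identifiers in the counts, and 8 had at least 1 read and were among the 18345 genes tested. CCL5 is not analysed here, and IL1B had no read in any library.

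The cells were primary bovine mammary epithelial cells (BMEC) at the third passage, isolated after slaughter from udders of lactating Holstein cows and differentiated with the lactogenic hormones insulin, prolactin and hydrocortisone, which all groups received. RNA was sequenced after 60 h in 1 of 4 media, of which the control (CTL) contained 80 µM lysine, 20 µM methionine and 40 µM histidine. Histidine was lowered to 10 µM in LH, lysine to 20 µM in LK and methionine to 5 µM in LM, while the other essential amino acids (EAA) stayed at the control level. The comparisons ask how the shortage of a single EAA changes transcript levels, and they use 2 CTL, 3 LH, 3 LK and 2 LM libraries, from which LM replicate 2 is left out because the study dropped it after quality checks.

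Mammary epithelial cells form the lining that meets bacteria entering the udder, and they take part in the innate response of mastitis. Toll-like receptors at the cell surface recognise bacterial lipoproteins and lipopolysaccharide and signal through NF-kB to genes of cytokines and chemokines. CXCL8 then draws neutrophils into the milk, and lactoferrin and the S100 proteins act on bacteria by binding iron, zinc and manganese.

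The total of counts on genes ranged from 199231024 to 278354731 over the 10 libraries, and it was 173982461 in LM replicate 2. Among genes that averaged 20 to 80 counts, the share without a read was 38.4% to 47.3% in CTL, 33.8% to 42.7% in LM, 17.3% to 26.4% in LH, 11% to 26.8% in LK and 59.8% in LM replicate 2. Low counts were therefore patchy despite the large totals, and most so in CTL, LM and LM replicate 2. Levels are counts scaled to the library total after TMM normalization (CPM), and they are compared only within a gene because transcript lengths were not used. A gene passed the test when its adjusted p was under 0.05 in edgeR (quasi-likelihood F test, Benjamini-Hochberg adjustment over all genes tested). The libraries are described as triplicates without naming separate cultures or animals, so p-values measure the spread between these libraries, and the 3 comparisons with CTL share its libraries. In bulk RNA, fewer cells of a type and less RNA per cell cannot be told apart.

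Against CTL, 3 of the 8 tested genes rose in LK (CXCL8, S100A8 and S100A9), 1 rose in LH (CXCL8) and 1 rose in LM (S100A9). Over all genes tested, the share that passed in the higher direction was 7.36% for LK, 3.18% for LH and 3.77% for LM. No gene of the set passed the test in the lower direction in LK, LH or LM, beside 6.31%, 2.55% and 3.67% of all genes tested. With the further requirement of at least a 2-fold change, 1 of the 8 genes remained in LK (CXCL8), and 0 remained in LH and LM. The corresponding share of all genes tested was 3.12% in LK, 1.17% in LH and 1.47% in LM. All libraries lay above both CTL libraries for 3 of the 8 genes in LK (CXCL8, TLR2 and S100A9), 2 in LH (CXCL8 and TLR2) and 3 in LM (CXCL8, TLR2 and S100A9), beside 21.3%, 14.7% and 19.4% of all genes tested. The median log2 fold change of the 8 genes was 0.57 in LK, 0.43 in LH and 0.45 in LM, beside medians of 0.02, 0.01 and 0 over all genes tested. They count IL6 and TNF, which had libraries without a read, among the high values. Over the 6 genes with reads in all 10 libraries the medians were 0.35 in LK, 0.12 in LH and 0.13 in LM.

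**Figure D1:**
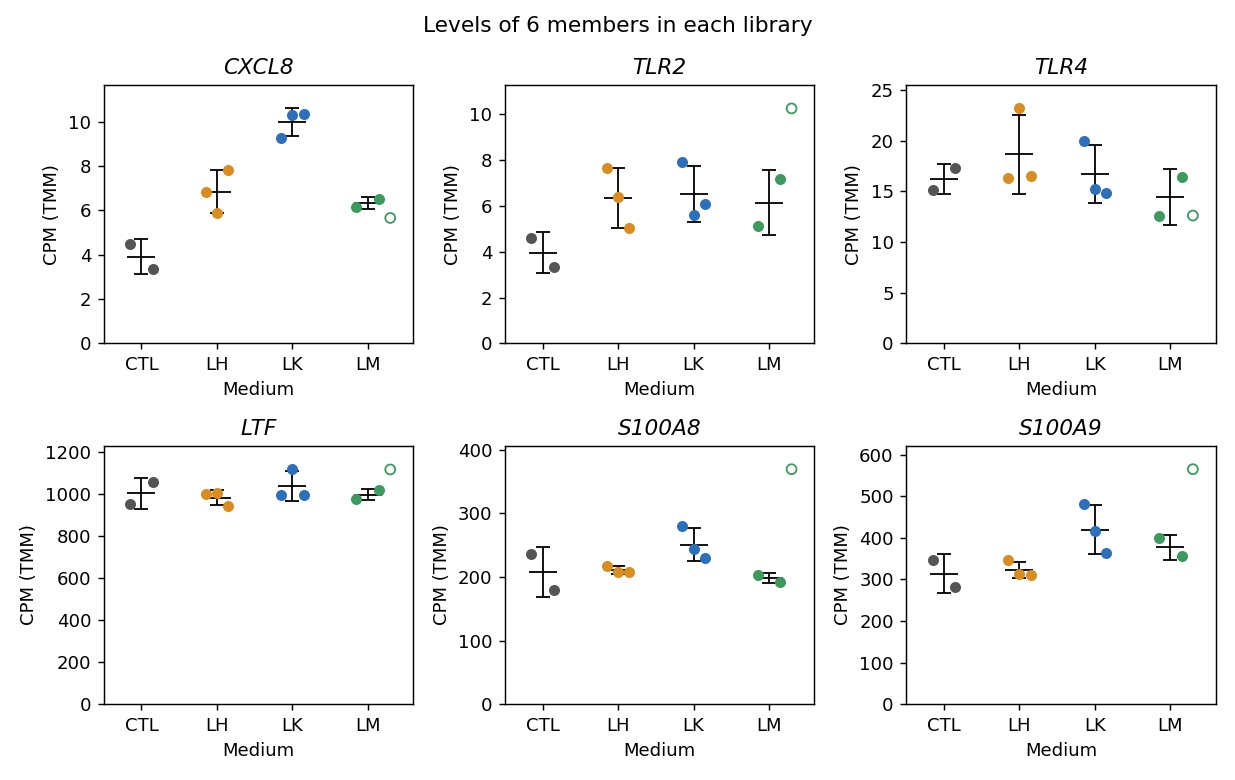
Levels of CXCL8, TLR2, TLR4, LTF, S100A8 and S100A9 in CPM after TMM normalization (vertical axes, from 0) in CTL, LH, LK and LM. Filled points are libraries, the horizontal lines and bars give the mean and SD over them, and the open point is LM replicate 2, which was not used in the means. CXCL8 lay highest in LK, at 9.28 to 10.4 CPM against 3.37 and 4.47 CPM in CTL, whereas LTF stayed between 944 and 1120 CPM in the 10 libraries.

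CXCL8, which encodes the chemokine interleukin-8 that attracts neutrophils, had the largest log2 fold change among genes of the set that passed the test. Its level was 4.47 and 3.37 CPM in the CTL libraries, 6.83, 5.88 and 7.82 CPM in LH, 9.28, 10.3 and 10.4 CPM in LK, and 6.13 and 6.52 CPM in LM. Each deficient group lay above both CTL libraries, beside 14.7% of all genes tested in LH, 21.3% in LK and 19.4% in LM. The LK libraries also lay above those of LH and of LM, beside 12.3% and 18.5% of all genes tested.

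The mean level was 3.92 ± 0.777 CPM (SD, n = 2) in CTL, 6.84 ± 0.967 (n = 3) in LH, 9.99 ± 0.613 (n = 3) in LK and 6.32 ± 0.270 (n = 2) in LM. CXCL8 rose in LK by a log2 fold change of 1.35 (SE 0.23, edgeR adjusted p = 7.34e-06), or 2.55-fold. It rose in LH by 0.80 on the log2 scale (SE 0.23, edgeR adjusted p = 0.0190), or 1.75-fold. The rise in LK passed the test under all 18 alternative settings, with log2 fold changes from 1.16 to 1.57. The call in LH was lost with all 11 libraries, with only the 2 groups in the fit, without CTL replicate 2 and without LH replicate 3 (adjusted p = 0.0960, 0.102, 0.156 and 0.116), the log2 fold change staying between 0.61 and 0.81 in these fits.

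In LM, the CXCL8 log2 fold change was 0.69, with a 95% interval of 0.21 to 1.17 and an edgeR adjusted p of 0.0700. The LM libraries did not overlap those of CTL, but the p missed the threshold, which does not show that LM left the gene unchanged. CXCL8 passed in LM without CTL replicate 1 (log2 fold change 0.91, adjusted p = 0.0373) and with library size as the only scaling (0.74, adjusted p = 0.0469).

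Differences of CXCL8 between deficiencies did not pass the test, although those of LK were near the threshold. The log2 difference was 0.55 between LK and LH (SE 0.20, edgeR adjusted p = 0.0850) and 0.66 between LK and LM (SE 0.22, adjusted p = 0.0708), and the libraries did not overlap in either comparison. The difference between LK and LH passed in 3 of 18 alternatives, namely with only these groups in the fit (adjusted p = 0.0231), without CTL replicate 1 (0.0424) and without CTL replicate 2 (0.0414). That between LK and LM passed in 5, namely the same settings (adjusted p = 0.0181, 0.0347 and 0.0338), without LH replicate 1 (0.0477) and with the replicate number as a block (0.0389). Between LM and LH the difference was -0.11, with a 95% interval of -0.55 to 0.33 (edgeR adjusted p = 0.914).

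The cytokine genes IL6, TNF and IL1B, whose products drive fever, the acute phase response and vascular inflammation, had few reads or none. IL6 had 44 and 0 reads in CTL, 82, 0 and 6 in LH, 18, 188 and 112 in LK, and 0 and 132 in LM. It was at 0 in 3 of the 10 libraries, in CTL, LH and LM, so that every group except LK held a library without a read.

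TNF had no read in either CTL library, 20, 0 and 104 reads in LH, 15, 0 and 48 in LK, and 0 and 47 in LM. Each deficient group thus held 1 library without TNF reads and at least 1 with reads, and all groups overlapped with CTL. For IL6 the edgeR adjusted p against CTL was 0.931 (LH), 0.575 (LK) and 0.780 (LM), and for TNF it was 0.286, 0.245 and 0.297. No fold change of TNF is given, because CTL had no read, and within groups single libraries held most reads, such as LH replicate 3 with 104 and LM replicate 3 with 47. The 95% interval of the IL6 log2 fold change was -3.27 to 4.58 in LH, -2.01 to 6.35 in LK and -2.69 to 5.94 in LM, so a difference of IL6 was not detectable at this precision. The share of genes without a read at this range of counts was 38.4% and 47.3% in CTL, above that of all LH and LK libraries but overlapping with LM (33.8% and 42.7%), and its part in the IL6 and TNF values was not tested.

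IL1B was at 0 in all 11 libraries. For independent counts, a count of 0 allows a level of up to 3 counts per library, which is 0.0110 to 0.0183 CPM. The totals of counts were above the numbers of read pairs that the paper lists, so both mates of a pair can have been counted. Mates are not independent, and the limit is then higher. It also covers counting error only, since reads copied by PCR and not marked by molecular identifiers do not each stand for a molecule.

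**Figure D2:**
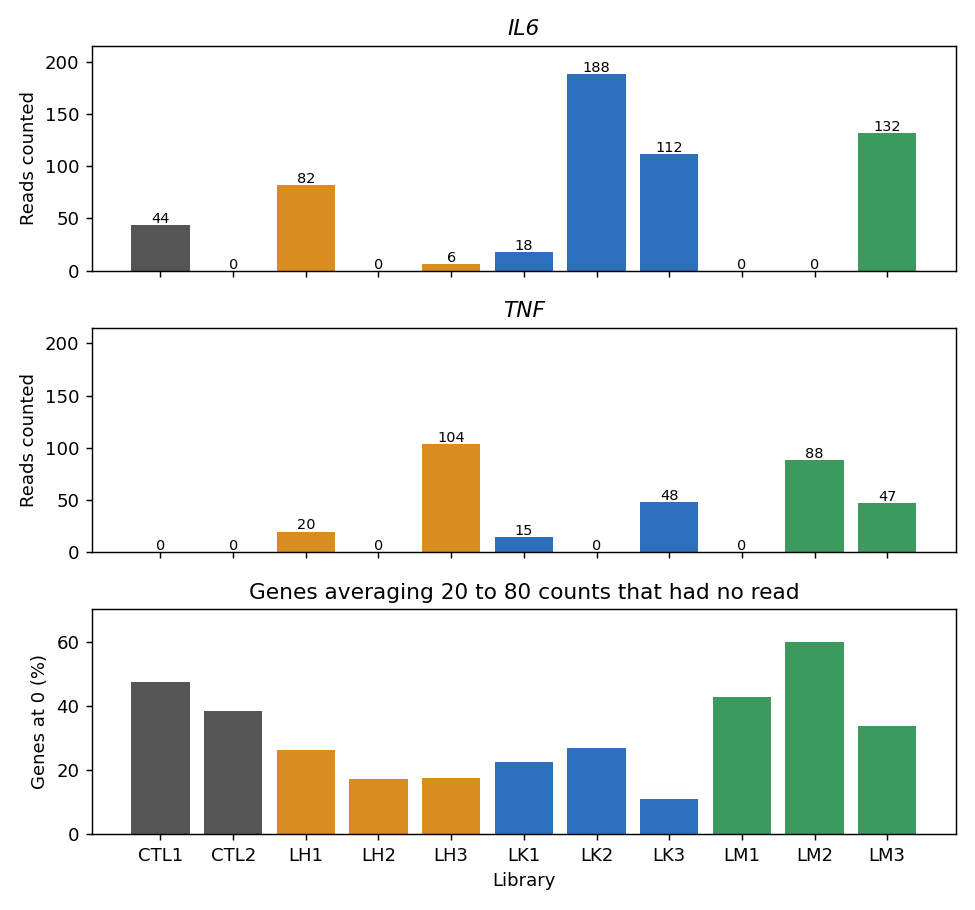
Reads counted on IL6 and TNF in each of the 11 libraries (upper panels, numbers above the bars), and the percentage of genes averaging 20 to 80 counts that had no read in the same library (lowest panel). IL6 and TNF were at 0 in libraries of several groups, and the share of genes at 0 ran from 11% in an LK library to 59.8% in LM replicate 2, which was not in the fit.

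TLR2, the receptor for bacterial lipoproteins, was higher than CTL in each deficient group but missed the threshold in each of them. Its level was 4.60 and 3.32 CPM in CTL, 7.66, 6.39 and 5.04 CPM in LH, 7.92, 5.61 and 6.08 CPM in LK, and 5.14 and 7.16 CPM in LM. Each deficient group lay above both CTL libraries, beside 14.7% of all genes tested in LH, 21.3% in LK and 19.4% in LM. The deficient groups overlapped each other.

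The fold change of TLR2 was 1.65 in LK (95% interval 1.15 to 2.37, edgeR adjusted p = 0.0521), 1.61 in LH (1.12 to 2.30, adjusted p = 0.121) and 1.55 in LM (1.05 to 2.29, adjusted p = 0.184). In LK it passed in 6 of the 18 alternatives, with an adjusted p of 0.0350 at the lowest, without CTL replicate 1, and its log2 fold change was 0.51 (adjusted p = 0.294) without CTL replicate 2. The log2 differences between deficiencies had 95% intervals of -0.42 to 0.49 for LK against LH, -0.56 to 0.46 for LM against LH and -0.42 to 0.60 for LK against LM.

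For TLR4, which recognises bacterial lipopolysaccharide together with its co-receptors, every deficient group overlapped with CTL. Its level was 15.2 and 17.3 CPM in CTL, 16.3, 23.2 and 16.5 CPM in LH, 20.0, 15.3 and 14.8 CPM in LK, and 12.5 and 16.4 CPM in LM. The highest value, 23.2 CPM, was that of LH replicate 2 and the lowest, 12.5 CPM, that of LM replicate 1. The TLR4 log2 fold change was 0.20 in LH (95% interval -0.13 to 0.53, edgeR adjusted p = 0.595), 0.04 in LK (-0.29 to 0.37, adjusted p = 0.942) and -0.16 in LM (-0.53 to 0.20, adjusted p = 0.703). The difference between LM and LH was -0.37 (95% interval -0.70 to -0.03), but it did not pass the adjustment over all genes (edgeR adjusted p = 0.330).

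**Figure D3:**
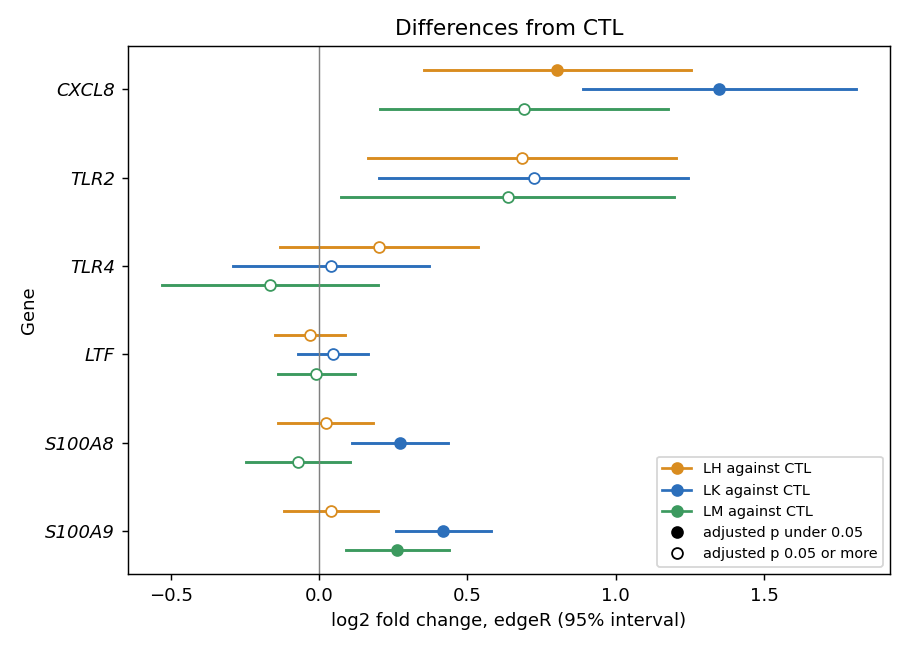
Log2 fold changes against CTL of 6 genes (vertical axis) in LH, LK and LM, with 95% intervals from edgeR as horizontal lines, and a vertical line at 0. Filled points passed at an adjusted p under 0.05 and open points did not. The interval of CXCL8 in LK reached from 0.89 to 1.81, and the intervals of LTF all lay between -0.15 and 0.17.

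LTF encodes lactoferrin, an iron-binding protein of milk that withholds iron from bacteria and is made by the mammary epithelium. Its level was 954 and 1058 CPM in CTL, 1004, 1007 and 944 CPM in LH, 998, 1120 and 999 CPM in LK, and 979 and 1019 CPM in LM. The highest of the 10 libraries was 1.19 times the lowest, every deficient group overlapped with CTL, and no deficient group stood apart from the others. The LTF log2 fold change was -0.03 in LH, 0.05 in LK and -0.01 for LM (edgeR adjusted p = 0.869, 0.681 and 1). Over the 6 comparisons, the intervals lay within -0.15 and 0.18 on the log2 scale, that is between 0.902-fold and 1.14-fold.

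S100A8 and S100A9 encode the subunits of calprotectin, a protein that binds zinc and manganese and that is abundant in neutrophils but also made by epithelial cells. Both rose in LK. In the RefSeq table of the bovine assembly ARS-UCD2.0, the genes neighbour each other with 1 gene, S100A12, between them.

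S100A8 was at 235 and 180 CPM in CTL, 218, 208 and 207 CPM in LH, 280, 243 and 230 CPM in LK, and 203 and 192 CPM in LM. The lowest LK library (230 CPM) lay under the higher CTL library (235 CPM), so the groups overlapped, while all LK libraries were above those of LH and LM. S100A8 rose in LK by 0.27 on the log2 scale (SE 0.08, edgeR adjusted p = 0.0138), or 1.21-fold. The log2 fold change was 0.02 in LH (95% interval -0.14 to 0.18, edgeR adjusted p = 0.952) and -0.07 in LM (-0.24 to 0.11, adjusted p = 0.760). The rise in LK was lost in 5 of 18 alternatives, among them without CTL replicate 2 (log2 fold change 0.09, adjusted p = 0.586) and without LK replicate 1 (0.19, adjusted p = 0.159).

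S100A9 was at 347 and 281 CPM in CTL, 345, 313 and 310 CPM in LH, 481, 416 and 362 CPM in LK, and 398 and 355 CPM in LM. The LK and LM libraries all lay above both CTL libraries, whereas LH lay within the range of CTL. S100A9 rose in LK by 0.42 on the log2 scale (SE 0.08, edgeR adjusted p = 5.57e-05), or 1.34-fold, and in LM by 0.26 (SE 0.09, adjusted p = 0.0472). In LH its log2 fold change was 0.04 (95% interval -0.12 to 0.20, adjusted p = 0.876). Without CTL replicate 2, the log2 fold change was 0.28 in LK (adjusted p = 0.0640) and 0.12 in LM (adjusted p = 0.570). The call in LM was lost in 7 of 18 alternatives, including DESeq2 (adjusted p = 0.359) and without LM replicate 1 (log2 fold change 0.18, adjusted p = 0.498).

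S100A8 and S100A9 were also compared between deficiencies. Of the 8 tested genes, 2 were higher in LK than in LH, beside 3.69% of all genes tested that passed in this direction: S100A8 by 0.25 on the log2 scale (SE 0.07, edgeR adjusted p = 0.0172) and S100A9 by 0.38 (SE 0.07, adjusted p = 7.47e-05). Of the 8 tested genes, 1 was higher in LK than in LM, beside 2.93% of all genes tested: S100A8 by 0.34 (SE 0.08, edgeR adjusted p = 0.00386). The S100A8 call for LK against LH was lost in 5 of 18 alternatives, among them without LK replicate 1 (0.16, adjusted p = 0.287), LH replicate 3 (adjusted p = 0.0570) or LM replicate 3 (0.0609) and with filterByExpr (0.0939). The S100A8 call for LK against LM was lost without LM replicate 3 (adjusted p = 0.156), LM replicate 1 (0.0752) or LK replicate 1 (0.0561). For S100A9 the difference between LK and LM was 0.16, with a 95% interval that reached from just under 0 to 0.31 (edgeR adjusted p = 0.316). It passed without LK replicate 3 (0.25, adjusted p = 0.0390) but was 0.05 without LK replicate 1 (adjusted p = 0.884). Without LM replicate 1 it was 0.24, and without LM replicate 3 it was 0.06. All LK libraries lay above those of LH for 3 of the 8 genes (CXCL8, S100A8 and S100A9) and above those of LM for 2 (CXCL8 and S100A8), beside 12.3% and 18.5% of all genes tested. Between LM and LH, 0 of the 8 genes passed the test in edgeR and in DESeq2, beside 2.44% of all genes tested in edgeR, and 2 of them (TLR4 and S100A9) had an unadjusted edgeR p under 0.05, beside 12.5% of all genes tested. The S100A9 difference in that comparison was 0.22 (95% interval 0.07 to 0.38, edgeR adjusted p = 0.133), and it passed in 3 of 18 alternatives, with the lowest adjusted p, 0.00283, without LH replicate 1. With 1 library left out, this difference ran from 0.14 without LM replicate 1 to 0.31 without LM replicate 3. No gene of the set both passed and differed at least 2-fold for LK against LH, LM against LH or LK against LM, beside 0.496%, 0.164% and 0.861% of all genes tested.

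These calls rest on leaving out LM replicate 2, in which S100A8 was at 369 CPM and S100A9 at 565 CPM, above all other libraries. With all 11 libraries, the S100A8 difference between LK and LM was -0.04 (edgeR adjusted p = 0.966), and that between LK and LH was 0.24 (adjusted p = 0.721). The S100A9 difference between LK and LH was then 0.37 (adjusted p = 0.244). The log2 fold changes against CTL were 0.26 for S100A8 (adjusted p = 0.531) and 0.41 for S100A9 (adjusted p = 0.138) in LK, and 0.30 (adjusted p = 0.434) and 0.49 (adjusted p = 0.0849) in LM. Thus no call of S100A8 or S100A9 was kept with that library in the fit.

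Because both genes encode subunits of the same protein, their counts were also set against each other as a ratio within each library, a description chosen after the values had been seen and given without a test. S100A9 counts per S100A8 count were 1.47 and 1.56 in CTL, 1.59, 1.50 and 1.49 in LH, 1.72, 1.71 and 1.58 in LK, and 1.96 and 1.85 in LM. The LM libraries lay above all others. The LK libraries lay above CTL but overlapped with LH, at 1.58 against 1.59, and LH overlapped with CTL. The mean ratio was 1.52 ± 0.0604 (SD, n = 2) in CTL, 1.53 ± 0.0507 (n = 3) in LH, 1.67 ± 0.0785 (n = 3) in LK and 1.90 ± 0.0800 (n = 2) in LM. In LM replicate 2 the ratio was 1.53, within the range of LH and CTL, so the higher ratio of LM holds for the libraries kept by the study and not for all 3.

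**Figure D4:**
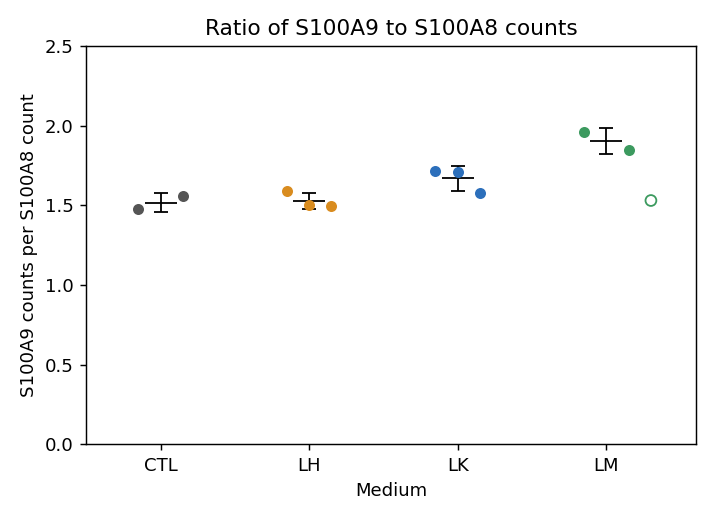
S100A9 counts per S100A8 count (vertical axis, from 0) in each library of CTL, LH, LK and LM, with the mean and SD of the filled points as lines and bars. The LM libraries at 1.96 and 1.85 lay above the other groups, while the open point, LM replicate 2, was at 1.53 and was not used in the mean.

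In a description over the 10 libraries and 14452 genes averaging at least 50 counts, the gene whose log2 CPM followed CXCL8 most closely was ENSBTAG00000016656 (Pearson's r 0.983), and the gene closest to S100A9 was ENSBTAG00000018349 (r 0.953). S100A8 and S100A9 followed each other with an r of 0.794. S100A8 was in place 151 among the genes ordered by likeness to S100A9, and S100A9 was in place 91 by likeness to S100A8. The points are libraries of 4 groups, and the groups differ in the share of genes without a read. The values only describe likeness.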

How the data were processed

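Reads were trimmed by the authors (fastp) and mapped to ARS-UCD1.2 (STAR), and featureCounts gave the count of each gene. The paper names a stranded library kit. For featureCounts, neither the version nor the options, such as strand, were found in the labels or the paper. How reads of overlapping or near-identical genes were counted is therefore not known. The values the authors deposited are raw counts per gene, and no count column was left unused.

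The 10 libraries of 4 groups were fitted together in R 4.3.3 with edgeR 4.0.16 (TMM, quasi-likelihood, no covariates) over genes with more than 10 reads summed. Benjamini-Hochberg adjustment was made over all genes of a comparison. Standard errors and 95% intervals came from the F statistic. DESeq2 1.42.0, other scalings and limits on low counts, all 11 libraries, only the groups compared, a replicate block and each library left out were alternatives. A comparison of the 3 deficiencies together with CTL and a test of the ratio of S100A9 to S100A8 counts were prompted by the values themselves and are not reported. The steps were run on simulated counts with changes of at least 2-fold in genes with high counts. That run does not bear on changes as small as those of S100A8 and S100A9, or on patchy low counts. Python 3.11.15 with matplotlib 3.10.9 drew the figures.

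The genes and lists were chosen with earlier results of these data known. All genes of the set are named, with full statistics for those that passed, and other genes only by likeness. Symbols of the set came with their identifiers, and no table used here allowed a check. Of 140 further symbols for related pathways and cell type markers, 137 were in the RefSeq table of 37063 genes, of which 0 carried an Ensembl identifier, so 0 could be matched. Pathway lists and the markers of the labelled cell type were therefore not used here, nor were promoter or protein sequences. The third CTL library was not analysed here.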

Additional observations from a re-analysis of the deposited data

Results flagged for a closer look

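The effect of lysine deficiency on S100A8 and S100A9 differed from that of histidine deficiency, by 0.25 and 0.38 on the log2 scale for LK against LH in edgeR's quasi-likelihood test (adjusted p = 0.0172 and 7.47e-05). The effect on S100A8 also differed between LK and LM, by 0.34 (adjusted p = 0.00386). With LM replicate 2 in the fit none of these 3 differences passed.

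LM replicate 2, which the main comparisons left out, had levels above both CTL libraries for 6 of the 8 tested genes, beside 33.6% of all 18383 genes tested with 11 libraries. They were 5.66 CPM for CXCL8, 0.537 CPM for TNF, 10.3 CPM for TLR2, 1119 CPM for LTF, 369 CPM for S100A8 and 565 CPM for S100A9. TLR4, at 12.6 CPM, was below both CTL libraries, as were 33.8% of all genes, and IL6 had no read. The values of TNF, TLR2, S100A8 and S100A9 in this library were higher than in all 10 other libraries, and 59.8% of genes averaging 20 to 80 counts had no read in it.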

How the results depend on the processing

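The number of genes of the set that passed the test was 1 in LH, 3 in LK and 1 in LM against CTL, 2 for LK against LH, 0 for LM against LH and 1 for LK against LM. With all 11 libraries these numbers were 0, 1, 0, 0, 0 and 0. With at least a 2-fold change required they were again 0, 1, 0, 0, 0 and 0. With the libraries of the compared pair alone, LH had 0, LK had 2, LK against LH had 3 and LK against LM had 2. DESeq2 gave 0 in LM, and its size factors in edgeR gave 0 in LM. With filterByExpr the numbers were 2 in LK, 0 in LM and 1 for LK against LH. Library size alone gave 4 in LK, 2 in LM and 1 for LM against LH. No limit on low counts gave 4 in LK and 1 for LM against LH. Leaving out 1 library gave 0 to 1 in LH, 1 to 4 in LK, 0 to 2 in LM, 1 to 3 for LK against LH, 0 to 1 for LM against LH and 0 to 2 for LK against LM. Without CTL replicate 2 the numbers were 0 in LH, 1 in LK and 0 in LM. The number was also 0 in LH without LH replicate 3, 0 in LM without LM replicate 1 or 3, 1 for LK against LH without LH replicate 3, LM replicate 3 or LK replicate 1, and 0 for LK against LM without LM replicate 1, LM replicate 3 or LK replicate 1. It was 2 in LM without CTL replicate 1, 1 for LM against LH without LH replicate 1, and 2 for LK against LM without CTL replicate 1, CTL replicate 2, LH replicate 1 or LK replicate 3.

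Same-numbered libraries showed no clear shared deviation (r of -0.03 to 0.08 in 12 pairs), and the replicate numbers were not taken to pair them. Deviations were taken from the means of small groups, so the pairs were not independent and the check cannot show that pairing is absent. With the replicate block, 4 genes passed in LK, 1 in LM and 2 for LK against LM. The genes added were TLR2 in LK (0.74, edgeR adjusted p = 0.0447) and CXCL8 for LK against LM (0.73, adjusted p = 0.0389).

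The direction turned only for values that had not passed, or with LM replicate 2 in the fit. LTF in LM was 0.0487 with all 11 libraries, 0.0439 with library size alone and 0.0536 with the block. S100A8 was 0.30 in LM and -0.0356 for LK against LM with all 11 libraries, and S100A9 was -0.0776 for LK against LM. With 1 library left out, log2 fold changes in LH ranged from -3.03 to 1.25 for IL6, -0.10 to 0.0464 for LTF, -0.16 to 0.23 for S100A8 and -0.10 to 0.20 for S100A9. In LK they ranged from -0.11 to 0.14 for TLR4 and -0.0262 to 0.12 for LTF, and in LM from -0.37 to 0.0173 for TLR4, -0.0824 to 0.0675 for LTF and -0.25 to 0.14 for S100A8. Fits in which IL6 had no read in one of the groups compared, and the fit of LM without LM replicate 3 for TNF, which then had no read in LM or CTL, gave no value. The causes were not tested. Groups of 2 or 3 libraries and the patchy low counts limit what could be detected for IL6 and TNF.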
